A study of Bos taurus with 16 samples.

Results

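The extracellular matrix is the protein network around cells, and genes of that matrix, of the enzymes that cut it and of the receptors that bind it were measured in kidney RNA of cattle (Bos taurus). A spotted cDNA clone counted as a member if its listed gene symbol was that of a collagen, laminin or integrin chain (symbols beginning COL, LAM, ITGA or ITGB), of an MMP, TIMP, ADAM or ADAMTS protein, of a fibulin, fibrillin or thrombospondin, or was FN1, MGP, FMOD, DCN, LUM, BGN, SPARC, SPP1 or HSPG2. The rule read symbols alone, though it was set with earlier results of these data known. It took 62 clones of 45 genes (124 spots, each clone being printed as a duplicate) out of 8448 clones on the array, of which 5693 have a listed gene. Of the members, 59 clones of 43 genes had a value in all 8 kidney RNAs and were tested among 5537 such clones. ADAM8, FBLN7 and the second of the ITGAD clones each lacked a value in 1 RNA and were not tested.

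The study asked how faithfully linear amplification, in which RNA is copied through rounds of in vitro transcription, keeps an expression profile, as a check for work on single bovine embryos. There were 4 groups of 2 kidney RNAs, replicates 1 and K: round 0 is total RNA that was not amplified, and rounds 1, 2 and 3 are RNA amplified that many times. Every RNA was hybridised on 2 arrays, with kidney in Cy3 on one and in Cy5 on the other, against a common reference RNA that was itself amplified for 2 rounds, so that at round 0 an unamplified RNA was compared with an amplified one. The labels used here give no breed, sex, age or treatment, do not say which tissues the reference was made from, and leave unsaid whether the 2 replicates came from different animals or from different preparations, so that p-values here reflect no more than the spread of these RNAs, which may be technical.

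Values are log2 ratios, kidney over reference, after the median of each array was set to 0, and an RNA's value is the mean of its 2 arrays. A value of 1 is a 2-fold higher signal in kidney than in the reference. A ratio compares the same clone in 2 RNAs and says nothing of the level of one gene against another. The direction is likely rather than stated: which dye is the numerator was read from a list of kidney tubule and glomerulus genes, set to lie above the reference, and with the other dye as numerator every sign below would turn. A clone is said to be called, or to have risen or fallen, at a Benjamini-Hochberg adjusted p under 0.05 over all 5537 tested clones in limma. Where pairs of values are given, replicate 1 comes first and replicate K second, and differences are given ± SE with n = 2 RNAs per round.

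Fibrillar collagens give connective tissue its strength, while type IV collagen, laminins and the proteoglycan perlecan form the basement membranes that lie under tubule epithelium and in the filtration barrier of the glomerulus. Cells grip these proteins through integrins, receptors made of an alpha and a beta chain that link the matrix to the cytoskeleton. Metalloproteinases of the MMP, ADAM and ADAMTS families cut matrix and cell surface proteins, and TIMP proteins inhibit them. The kidney interstitium normally holds little fibrous matrix, and basement membrane makes up much of what there is.

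A ratio was present for 83.8% to 95.0% of the spots per array, which is the depth of these data, and the duplicate spots correlated at 0.496 to 0.822. The 2 arrays of a dye swap correlated at 0.507 to 0.876 over the members and at 0.235 to 0.663 over all listed clones (median 0.532), where arrays of different RNAs in one dye had a median of 0.570. They agreed in the sign of the ratio for 35 to 47 of them, the fewest for replicate K of round 1. The median gap between replicates 1 and K over the members was 0.18 at round 0 and 0.49, 0.35 and 0.39 at rounds 1, 2 and 3. Over all tested clones it was 0.21 at round 0 and 0.37, 0.33 and 0.33 at rounds 1, 2 and 3. Of the members' symbols, all 62 matched a current gene record.

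In kidney the matrix genes spread widely around the reference, from MGP, an inhibitor of tissue calcification, at 5.81 and 5.63 at round 0, 3.85 and 3.85 at round 1, 4.14 and 4.54 at round 2, and 3.80 and 3.44 at round 3, to TIMP1, the metalloproteinase inhibitor, at -4.76 and -4.83 at round 0, -2.63 and -3.48 at round 1, -3.62 and -3.29 at round 2, and -3.72 and -3.30 at round 3. MGP was the highest and TIMP1 the lowest of the 59 tested members at round 0, and neither overlapped the reference level of 0 in any RNA. At round 0 these ratios amount to a signal 52.7-fold above the reference for MGP and 27.7-fold below it for TIMP1. In bulk RNA such as this, fewer cells of a type and less RNA per cell cannot be told apart.

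At round 0, 26 members were called against the reference, 11 above it and 15 below, where 38.7% of all tested clones were called (19.6% above and 19.1% below). At round 1 the members called were 31 (12 above, 19 below), beside 37.8% of all clones (16.9% and 20.9%). Round 2 also had 31 (11 above, 20 below), beside 35.2% (16.6% and 18.6%), and round 3 had 32 (10 above, 22 below), beside 35.1% (16.7% and 18.4%). The share above the reference was thus 18.6%, 20.3%, 18.6% and 16.9% of the tested members at rounds 0 to 3, within 4 percentage points of that of all clones. The share below it was 25.4%, 32.2%, 33.9% and 37.3%, larger than that of all clones at each round, a difference that was not tested. Which side held more members turned with the centring: without it 16 members were above and 5 below at round 0, 6 and 17 at round 1, 13 and 7 at round 2, and 10 and 7 at round 3. All clones moved alike, with 1783 above and 192 below at round 0, 353 and 1113 at round 1, 1492 and 239 at round 2, and 888 and 337 at round 3. Counts fell to 17 and 15 without replicate 1 or K of round 0, to 18 without replicate K of round 1, to 18 and 17 without either RNA of round 2, and to 17 and 15 without either of round 3. In each of these fits the share of all clones called fell as well, to between 15.6% and 21.0%. The test against 0 leaves out the spread of the reference.

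**Figure D1:**
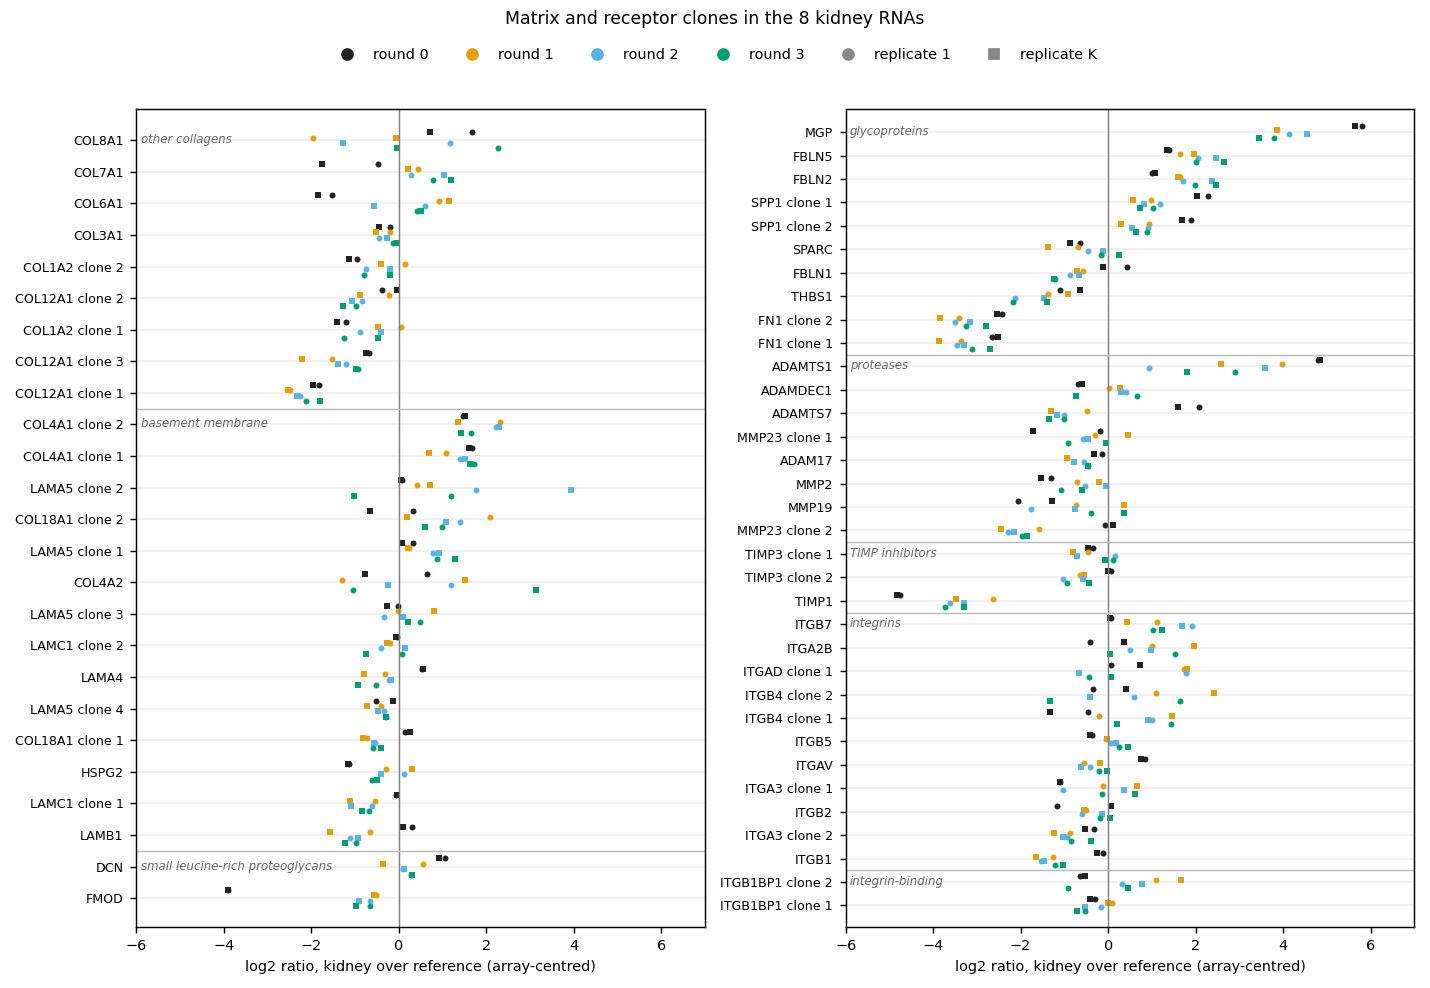
Log2 ratio in each kidney RNA against the reference (x axis) for each of the 59 tested clones (rows, grouped by role), with 1 point per RNA coloured by amplification round (circle for replicate 1, square for replicate K). MGP, at 3.44 to 5.81, lies farthest right and TIMP1, at -4.83 to -2.63, farthest left, and FMOD shows the widest gap between round 0 and the amplified rounds.

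Above the reference at all 4 rounds by the test were 7 clones, those of MGP, ADAMTS1, FBLN5, FBLN2, both of COL4A1 and the first of SPP1. The 7 called below it at all 4 rounds were TIMP1, both FN1 clones, FMOD, THBS1 and the first and the third of COL12A1. Among all tested clones 6.63% were called above and 7.89% below at all 4 rounds. In all 8 RNAs, 10 members had a positive ratio and 15 a negative one, and the like count over all clones is not given here. The mean of 25 members (42.4%) changed sign over the rounds, beside 50.3% of all tested clones. It was positive at all 4 rounds for 22% of members and 24.7% of all clones, and negative for 35.6% and 25%.

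Against round 0 the members moved in both directions. At round 1, 5 rose and 12 fell, where 13.3% of all tested clones were called (5.42% higher, 7.87% lower) and the 17 members make 28.8% of 59. At round 2, 3 rose and 6 fell, or 15.3% of members beside 11.2% of all clones (4.41% and 6.79%), and at round 3, 3 rose and 8 fell, or 18.6% beside 11.7% (4.61% and 7.1%). The median size of the difference, regardless of sign, was 0.97, 0.80 and 0.72 over the members at rounds 1, 2 and 3, against 0.56, 0.54 and 0.54 over all clones. These 3 comparisons share the round 0 RNAs, and so are not independent of each other.

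In all, 20 clones of 19 genes were called against round 0 at least once, 7 of them higher and 13 lower. They make 33.9% of the tested members, beside 20.5% of all clones called at least once. Of these, 8 (13.6%, beside 5.69% of all clones) were called at all 3 rounds: FMOD and COL6A1 higher, and MGP, ADAMTS7, ITGB1, ITGAV, the second MMP23 clone and the first SPP1 clone lower. A test of any difference among the 4 rounds called 8 members, beside 7.66% of all clones: FMOD, COL6A1, ITGB7, MGP, ADAMTS7, ITGB1, ITGAV and the second MMP23 clone. All 17, 9 and 11 called members had replicates that did not overlap those of round 0, but so had 48, 46 and 43 of the 59 tested. Those were 23 higher and 25 lower at round 1 beside 29.8% and 34.3% of all clones, 22 and 24 at round 2 beside 31.2% and 33.2%, and 20 and 23 at round 3 beside 32% and 33.1%.

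The 17 members called at round 1 became 3 when either RNA of round 0 was left out, 11 or 4 when replicate 1 or K of round 1 was, 9 for either RNA of round 2 and 11 for either RNA of round 3. They became 7 without the Cy3 array of round 1, replicate 1, and 0 in a fit of rounds 0 and 1 alone. At round 2 the 9 became 2 when either RNA of round 0 was left out, and 1 or 2 when replicate 1 or K of round 2 was. At round 3 the 11 became 4 when either RNA of round 0 was left out, 6 for either of round 2, 3 for either of round 3 and 7 for that Cy3 array. For some of these fits the share of all clones called is not given here. In the fits listed next, calls over all clones fell too. At round 1 their share went from 13.3% to 3.50% and 2.71% without replicate 1 or K of round 0, to 5.78% and 2.02% without those of round 1, and to 0.0361% in the fit of rounds 0 and 1 alone. At round 2 it went from 11.2% to 3.16% and 1.95% without replicates of round 0 and to 0.452% and 0.957% without those of round 2, and at round 3 from 11.7% to 3.23% and 2.64%, and to 2.64% and 1.86% without those of round 3. Without centring 2 members rose and 24 fell at round 1, as the median of all clones then lay at -1.04. Of the 37 single calls, 6 held with each of the 8 RNAs left out in turn: FMOD at all 3 rounds, ADAMTS7 at rounds 1 and 3 and MGP at round 3. All 37 kept their direction in these fits. Values in every cell of the 4 round 0 arrays have 3 decimals, against 83.2% to 88.2% of cells on the amplified arrays, so that a difference in the submitters' processing and round 0 cannot be told apart.

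**Figure D2:**
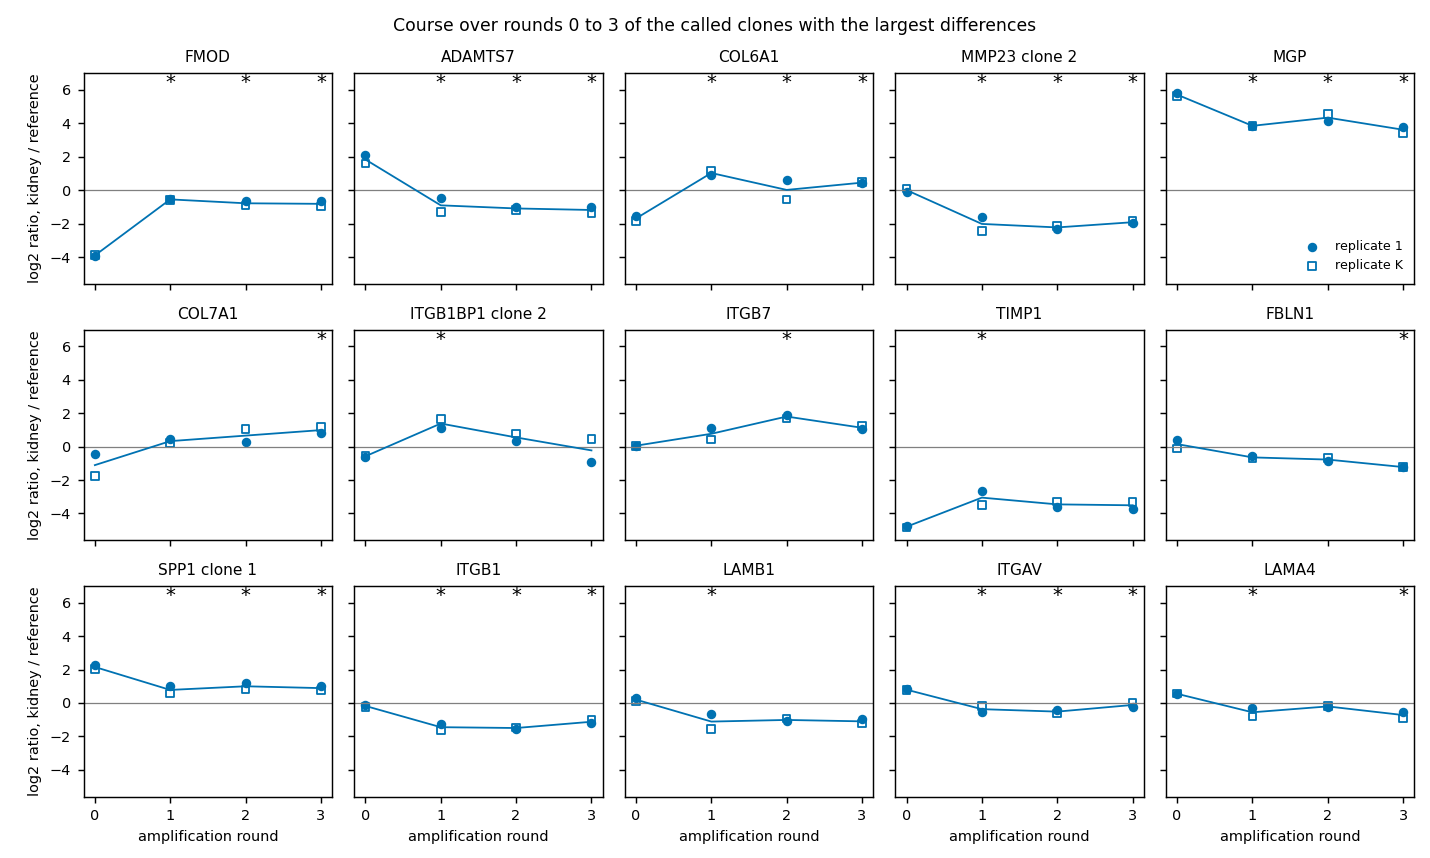
Log2 ratio of kidney over reference (y axis) against amplification round (x axis) for the 15 called clones with the largest differences from round 0, with a point for each replicate, a line through the means of the 2 RNAs and an asterisk where the round was called against round 0. FMOD, from -3.91 and -3.89 to between -0.98 and -0.52, and ADAMTS7, from 2.09 and 1.59 to between -1.36 and -0.49, show the widest steps, and the step lies between rounds 0 and 1.

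Among collagens outside the basement membrane (9 clones of 6 genes) 6 clones were called below the reference at round 0, and the other 3 were not called. Over all tested clones 19.1% were called below it at that round. COL6A1, a chain of the beaded filaments of type VI collagen, stood at -1.53 and -1.84 at round 0, 0.91 and 1.15 at round 1, 0.59 and -0.56 at round 2, and 0.41 and 0.50 at round 3. Its amplified RNAs all lay above both round 0 RNAs. It rose by 2.72 ± 0.39 at round 1 (adjusted p = 0.0132), 1.71 ± 0.39 at round 2 and 2.14 ± 0.39 at round 3. The arrays behind these values differ by dye: at round 3 both arrays with kidney in Cy3 read 2.13 and 2.38, and both with kidney in Cy5 -1.32 and -1.38. Replicate 1 of rounds 1 and 2 rests on its Cy3 array alone. At round 2 the Cy5 array of replicate K read -2.82, below the -2.43 and -2.33 of the round 0 Cy5 arrays. The rise at round 2 was thus seen with kidney in Cy3 only. COL7A1, which forms the anchoring fibrils of epithelia, stood at -0.47 and -1.75 at round 0, 0.44 and 0.21 at round 1, 0.27 and 1.04 at round 2, and 0.79 and 1.19 at round 3, and its replicates were 1.27 apart at round 0. It rose at round 3 by 2.10 ± 0.47 (adjusted p = 0.0396). Its differences at rounds 1 and 2, 1.44 ± 0.47 and 1.77 ± 0.47, were not called, and replicate K of round 0 rests on its Cy5 array alone. The size of the rise differed by dye. The Cy3 array of replicate 1 read 0.58 at round 0, and the Cy3 arrays of round 3 read 1.02 and 1.43. With kidney in Cy5 the round 3 difference was 2.385.

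COL12A1, a collagen that decorates the surface of type I fibrils, had 3 clones at separate ratios. The first lay at -1.81 and -1.95 at round 0, -2.50 and -2.54 at round 1, -2.26 and -2.32 at round 2, and -2.13 and -1.79 at round 3. The second lay at -0.39 and -0.04 at round 0, -0.22 and -0.89 at round 1, -0.85 and -1.07 at round 2, and -0.97 and -1.27 at round 3. The third lay at -0.69 and -0.75 at round 0, -1.53 and -2.21 at round 1, -1.21 and -1.38 at round 2, and -0.92 and -0.99 at round 3, and fell by 1.15 ± 0.27 at round 1 (adjusted p = 0.0418), lowest in replicate K. The other clones had differences of -0.64 ± 0.21 and -0.34 ± 0.30 at round 1 and were not called. None of the 3 clones was above 0 in any RNA. The main fibrillar collagens were not called against round 0: the 2 COL1A2 clones, for a chain of type I collagen, had mean ratios of -1.31, -0.22, -0.65 and -0.87 and of -1.05, -0.13, -0.48 and -0.50 at rounds 0 to 3, and COL3A1, of type III collagen, -0.33, -0.37, -0.37 and -0.08. COL8A1, a short-chain collagen of vessel walls, had means of 1.19, -1.01, -0.05 and 1.12 with replicates up to 2.47 apart at round 2.

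Single RNAs decided several of these calls. That of COL6A1 at round 1 was lost without replicate K of round 0 or of round 1 (adjusted p up to 0.0714). At round 2 it was lost when any single RNA other than replicate K of that round was left out (up to 0.163), and at round 3 without either RNA of round 0 or 3 (up to 0.108). The COL7A1 call was lost when any single RNA other than replicate 1 of round 0 was left out (up to 0.155), and that of the third COL12A1 clone when any single RNA other than replicate 1 of round 1 was left out (up to 0.155).

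Basement membrane genes (14 clones of 8 genes) centred near the reference, with medians of 0.00, 0.05, -0.13 and -0.11 at rounds 0 to 3. COL4A1, a main chain of type IV collagen, was the only one of them called above it at all 4 rounds, in both of its clones. The first COL4A1 clone stood at 1.68 and 1.61 at round 0, 1.08 and 0.70 at round 1, 1.40 and 1.52 at round 2, and 1.72 and 1.62 at round 3, and the second at 1.47 and 1.51 at round 0, 2.31 and 1.35 at round 1, 2.22 and 2.30 at round 2, and 1.65 and 1.43 at round 3. The means of the 2 clones lay 0.16 apart at round 0, and at round 1 the first lay below its own round 0 values (-0.76 ± 0.22) while the second did not (0.35 ± 0.33), and neither difference was called. COL4A2, the partner chain, had means of -0.06, 0.10, 0.47 and 1.04, with replicates 4.19 apart at round 3, the widest gap of any member, where replicate 1 rests on its Cy5 array alone.

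The laminins called against round 0 fell. LAMA4, a laminin alpha chain of endothelial basement membrane, read 0.53 and 0.56 at round 0, -0.31 and -0.80 at round 1, -0.23 and -0.19 at round 2, and -0.52 and -0.93 at round 3. It was above 0 in both unamplified RNAs and below 0 in all 6 amplified ones. It fell by 1.11 ± 0.25 at round 1 (adjusted p = 0.0403) and 1.27 ± 0.25 at round 3 (0.0308), with -0.76 ± 0.25 at round 2 not called. LAMB1, the laminin beta 1 chain, read 0.29 and 0.11 at round 0, -0.66 and -1.57 at round 1, -1.11 and -0.92 at round 2, and -0.98 and -1.23 at round 3, also on opposite sides of 0. Its difference of -1.32 ± 0.33 at round 1 was called (adjusted p = 0.0482), and its differences of -1.22 and -1.30 at rounds 2 and 3, of like size, were not (0.0632 and 0.0537). LAMC1, the gamma 1 chain, had 1 clone at means of -0.05, -0.83, -0.85 and -0.77 and another at -0.05, -0.24, -0.14 and -0.34, and neither was called against round 0. The 4 clones of LAMA5, an alpha chain of the mature glomerular basement membrane, were not called either, with differences at round 1 from -0.25 to 0.54 and 1 clone at 2.80 ± 0.89 at round 2. The replicates of that clone lay 2.18 apart at round 2, where replicate K rests on its Cy3 array alone.

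COL18A1, whose end fragment is endostatin, gave opposite courses in its 2 clones in the mean of the 2 dyes, but not in each dye. The first stood at 0.13 and 0.26 at round 0, -0.73 and -0.81 at round 1, -0.54 and -0.57 at round 2, and -0.59 and -0.41 at round 3 and fell by 0.97 ± 0.19 at round 1 (adjusted p = 0.0298). The second stood at 0.32 and -0.65 at round 0, 2.08 and 0.19 at round 1, 1.39 and 1.08 at round 2, and 0.99 and 0.60 at round 3, with a round 1 difference of 1.30 ± 0.64 that was not called and replicates 1.89 apart at that round. With kidney in Cy3 the second clone differed from round 0 by 2.92, 2.32 and 2.03 at rounds 1, 2 and 3. With kidney in Cy5 it differed by -0.32, 0.48 and -0.12, where the first clone had -0.46, -0.29 and -0.38. HSPG2, which encodes perlecan, the heparan sulfate proteoglycan of basement membranes, rose at round 1 by 1.14 ± 0.29 (adjusted p = 0.0495), from a mean of -1.14. That rise is not shared by the dyes: the round 1 difference was 3.04 on the arrays with kidney in Cy3 and -0.75 on those with kidney in Cy5.

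Each call of a basement membrane gene was lost without some single RNA. Those of HSPG2 and of LAMA4 at round 1 were lost whichever of the 8 RNAs was left out (adjusted p up to 0.171 and 0.146), and that of LAMA4 at round 3 when any single RNA of rounds 0, 2 or 3 was left out (up to 0.127). LAMB1 lost its call when any single RNA other than replicate 1 of round 1 was left out (up to 0.179), and the first COL18A1 clone when any single RNA of rounds 0, 1 or 2 was left out (up to 0.129).

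The small leucine-rich proteoglycans, which bind collagen fibrils and regulate their growth, had 2 clones. FMOD (fibromodulin) showed the largest difference of any member. It stood at -3.91 and -3.89 at round 0, -0.52 and -0.57 at round 1, -0.65 and -0.91 at round 2, and -0.65 and -0.98 at round 3. All 6 amplified values lay within a range of 0.45 and far above both unamplified ones, which lay 0.02 apart. FMOD rose by 3.35 ± 0.22, 3.12 ± 0.22 and 3.09 ± 0.22 at rounds 1, 2 and 3 (adjusted p = 0.002, 0.00367 and 0.00354), and stayed below the reference in every RNA. These calls held with each RNA left out (adjusted p up to 0.0426), although replicate 1 of round 0 rests on its Cy3 array alone. DCN (decorin), the other member of this family, had means of 0.99, 0.10, 0.11 and 0.29. It was called above the reference at round 0 alone, and its differences of -0.89 ± 0.31, -0.88 ± 0.31 and -0.70 ± 0.31 from round 0 were not called.

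Glycoproteins of the matrix (10 tested clones of 8 genes) ranged from FN1 far below the reference to MGP far above it, and those called against round 0 all fell: 4 at round 1, 2 at round 2 and 3 at round 3. Among all tested clones 7.87%, 6.79% and 7.1% fell at those rounds. MGP, whose values in each RNA are given above, fell by 1.87 ± 0.24, 1.38 ± 0.24 and 2.10 ± 0.24 (adjusted p = 0.0108, 0.0227 and 0.00819). The difference was below 0 in both dye orientations at every round, and with kidney in Cy5 alone the round 2 call was lost (-1.27, adjusted p = 0.0551 in limma). SPP1 encodes osteopontin, a secreted ligand of integrins made by tubule cells. Its first clone stood at 2.27 and 2.03 at round 0, 0.99 and 0.57 at round 1, 1.18 and 0.81 at round 2, and 1.04 and 0.74 at round 3. Its second stood at 1.90 and 1.69 at round 0, 0.93 and 0.28 at round 1, 0.92 and 0.55 at round 2, and 0.88 and 0.64 at round 3. In both clones every amplified RNA lay below both round 0 RNAs and above the reference. The first fell by 1.37 ± 0.26, 1.15 ± 0.26 and 1.26 ± 0.26. The second fell by 1.19 ± 0.29 at round 1 (adjusted p = 0.0454), and its -1.06 and -1.04 at rounds 2 and 3 were not called (0.0655 and 0.0681).

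FN1 (fibronectin), which links collagen to integrins, was far below the reference in both clones. The first FN1 clone read -2.65 and -2.52 at round 0, -3.36 and -3.87 at round 1, -3.46 and -3.29 at round 2, and -3.10 and -2.70 at round 3. The second read -2.42 and -2.54 at round 0, -3.41 and -3.85 at round 1, -3.50 and -3.15 at round 2, and -3.25 and -2.80 at round 3. In no RNA were the clones more than 0.23 apart. The second fell by 1.15 ± 0.27 at round 1 (adjusted p = 0.0431), and the first, at -1.03 ± 0.26, was just short of the threshold (0.0508). By round 3 the differences from round 0 were -0.32 and -0.55, not called.

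Fibulins are glycoproteins of elastic fibres and basement membranes, and the 3 tested ones differed in course. FBLN1 read 0.42 and -0.12 at round 0, -0.57 and -0.72 at round 1, -0.88 and -0.67 at round 2, and -1.22 and -1.23 at round 3, and fell by 1.37 ± 0.25 at round 3 (adjusted p = 0.0257), after -0.80 and -0.93 at rounds 1 and 2, which were not called. FBLN2 read 1.01 and 1.06 at round 0, 1.64 and 1.59 at round 1, 1.71 and 2.38 at round 2, and 1.98 and 2.48 at round 3. FBLN5 read 1.39 and 1.35 at round 0, 1.63 and 1.97 at round 1, 2.04 and 2.45 at round 2, and 2.02 and 2.66 at round 3. Both were called above the reference at all 4 rounds, and their amplified RNAs all lay above those of round 0. Their differences at round 3, 1.19 ± 0.30 for FBLN2 and 0.97 ± 0.30 for FBLN5, were not called (adjusted p = 0.0511 and 0.0817). SPARC, a collagen-binding protein, had means of -0.76, -1.04, -0.29 and 0.04, and THBS1 (thrombospondin), which activates latent TGF-beta, -0.88, -1.15, -1.80 and -1.79. Neither was called against round 0. FBLN7, not tested, ranged from -0.93 to 1.65 over the 7 RNAs with a value.

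The MGP call at round 1 was lost without replicate 1 of round 0 or replicate K of round 1 (adjusted p up to 0.0552), and at round 2 without either RNA of rounds 0 or 2 (up to 0.103). The first SPP1 clone lost its call at round 1 without either RNA of round 0 or replicate K of round 1 (up to 0.115). At rounds 2 and 3 it lost it when any single RNA of rounds 0, 2 or 3 was left out (up to 0.168 and 0.138). The second SPP1 clone lost it when any single RNA other than replicate 1 of round 1 was left out (up to 0.177), the second FN1 clone whichever of the 8 RNAs was left out (up to 0.162), and FBLN1 without replicate 1 of round 0 or either RNA of round 3 (up to 0.104).

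Of the matrix-cutting enzymes (8 tested clones of 7 genes), 2 clones fell at all 3 rounds and the other 6 were not called at any. Among all tested clones 5.69% were called at all 3 rounds. ADAMTS7, a protease of cartilage and vessel matrix, stood at 2.09 and 1.59 at round 0, -0.49 and -1.32 at round 1, -1.00 and -1.18 at round 2, and -1.01 and -1.36 at round 3. It was called above the reference at round 0 and below it at each amplified round. The differences from round 0 were -2.74 ± 0.34, -2.93 ± 0.34 and -3.02 ± 0.34 (adjusted p = 0.00971, 0.0097 and 0.00813). The difference was below 0 in both dye orientations at each round, but larger with kidney in Cy3 (-3.61, -3.73 and -3.78) than in Cy5 (-1.87, -2.13 and -2.26), and the round 1 call was lost with kidney in Cy5 alone (adjusted p = 0.0651 in limma). The call at round 2 was lost without either RNA of that round (up to 0.059). ADAMTS1, which cuts the large proteoglycans aggrecan and versican, stood at 4.80 and 4.84 at round 0, 3.98 and 2.59 at round 1, 0.92 and 3.58 at round 2, and 2.91 and 1.81 at round 3. It lay above the reference in every RNA, and its amplified RNAs all lay below both unamplified ones, but they varied so much between replicates that the differences of -1.54 ± 0.91, -2.57 ± 0.91 and -2.46 ± 0.91 were not called. Replicate K of rounds 0 and 3 rests on its Cy5 array alone.

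The 2 clones listed as MMP23, a membrane-anchored metalloproteinase, did not move together. The second stood at -0.08 and 0.10 at round 0, -1.59 and -2.45 at round 1, -2.30 and -2.15 at round 2, and -1.97 and -1.86 at round 3, so that it was level with the reference at round 0 and well below it afterwards. It fell by 2.02 ± 0.31, 2.23 ± 0.31 and 1.92 ± 0.31 (adjusted p = 0.0163, 0.0136 and 0.0193). The first stood at -0.18 and -1.72 at round 0, -0.30 and 0.46 at round 1, -0.57 and -0.45 at round 2, and -0.93 and -0.06 at round 3, with a difference of 1.03 ± 0.57 at round 1 that was not called, and replicates 1.55 apart at round 0. The calls of the second clone were lost without either RNA of round 0 at all 3 rounds, and at rounds 2 and 3 also without either RNA of that round (adjusted p up to 0.0805, 0.0708 and 0.0915). MMP2 (gelatinase A) had means of -1.43, -0.45, -0.29 and -0.84 and MMP19 -1.67, -0.18, -1.26 and -0.01. ADAM17, the sheddase of tumour necrosis factor, had -0.24, -0.95, -0.66 and -0.45, and ADAMDEC1, a relative of the ADAM proteins, -0.64, 0.15, 0.36 and -0.05. None of these 4 was called against round 0. ADAM8, not tested, ranged from -0.86 to 2.32 over 7 RNAs.

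Among TIMP inhibitors (3 clones of 2 genes), TIMP1 rose by 1.74 ± 0.34 at round 1 (adjusted p = 0.0271), from -4.76 and -4.83 at round 0 to -2.63 and -3.48. Its differences of 1.34 ± 0.34 and 1.28 ± 0.34 at rounds 2 and 3 were not called (0.0544 and 0.0585), although every amplified RNA lay above both unamplified ones. The round 1 call was lost without either RNA of round 0 or replicate 1 of round 1 (up to 0.114). TIMP3, the inhibitor that stays bound to the matrix, had means of -0.40, -0.63, -0.28 and 0.03 in 1 clone and 0.03, -0.59, -0.81 and -0.68 in the other, with no call against round 0.

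Integrin chains (11 tested clones of 9 genes) lay near the reference at round 0, where ITGAV was called above it and the other 10 were not called. At that round 19.6% of all tested clones were called above and 19.1% below. ITGB1, the beta 1 chain shared by most matrix receptors, stood at -0.11 and -0.25 at round 0, -1.25 and -1.65 at round 1, -1.53 and -1.47 at round 2, and -1.21 and -1.04 at round 3. ITGAV, the alpha V chain of receptors for vitronectin and osteopontin, stood at 0.83 and 0.76 at round 0, -0.56 and -0.19 at round 1, -0.42 and -0.62 at round 2, and -0.22 and -0.02 at round 3. For both genes all 6 amplified RNAs lay below both unamplified ones. ITGB1 fell by 1.27 ± 0.22, 1.32 ± 0.22 and 0.95 ± 0.22 (adjusted p = 0.0217, 0.0212 and 0.0443). ITGAV fell by 1.17 ± 0.23, 1.31 ± 0.23 and 0.92 ± 0.23 (0.0271, 0.0218 and 0.0498). ITGB7, a beta chain of lymphocyte integrins, moved the other way, at 0.06 and 0.05 at round 0, 1.10 and 0.43 at round 1, 1.92 and 1.68 at round 2, and 1.03 and 1.22 at round 3. It rose by 1.75 ± 0.28 at round 2 (adjusted p = 0.0188), while 0.71 ± 0.28 at round 1 and 1.07 ± 0.28 at round 3 were not called.

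No other integrin clone was called against round 0. ITGB5, which pairs with alpha V, had means of -0.40, -0.03, 0.11 and 0.35, with replicates within 0.20 of each other at each round. ITGB2, the beta chain of leukocyte integrins, had -0.55, -0.52, -0.36 and -0.08. The 2 clones of ITGA3, a laminin receptor chain of tubules and podocytes, lay at -1.11, 0.28, -0.33 and 0.23 and at -0.42, -1.06, -0.98 and -0.62, with round 1 differences of opposite sign (1.38 and -0.63). ITGB4, of hemidesmosomes, lay at -0.89, 0.63, 0.95 and 0.82 and 0.04, 1.76, 0.09 and 0.16, ITGA2B, the platelet alpha chain, at -0.02, 1.48, 0.74 and 0.79, and the tested ITGAD clone, of a leukocyte integrin, at 0.40, 1.76, 0.55 and -0.19. The ITGAD clone that was not tested ranged from -1.92 to 2.30 over 7 RNAs. ITGB1BP1 is not an integrin but a protein that binds the tail of the beta 1 chain. Its first clone stood at -0.31 and -0.41 at round 0, 0.10 and 0.00 at round 1, -0.16 and -0.52 at round 2, and -0.54 and -0.71 at round 3. Its second stood at -0.63 and -0.53 at round 0, 1.10 and 1.66 at round 1, 0.32 and 0.77 at round 2, and -0.92 and 0.46 at round 3, and rose by 1.96 ± 0.47 at round 1 (adjusted p = 0.0436), where the first had 0.41 ± 0.22, not called. For the second clone, replicate 1 of rounds 1 and 2 rests on its Cy3 array alone, and the arrays of replicate K at round 1 read 3.02 in Cy3 and 0.31 in Cy5.

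The ITGB1 call was lost at round 1 without either RNA of round 0 or replicate K of round 1 (adjusted p up to 0.0941), at round 2 without either RNA of rounds 0 or 2 (up to 0.0953), and at round 3 when any single RNA of rounds 0, 2 or 3 was left out (up to 0.172). That of ITGAV was lost at rounds 1 and 2 without either RNA of round 0 or of the round itself (up to 0.111 and 0.0956), and at round 3 whichever of the 8 RNAs was left out (up to 0.179). ITGB7 lost its call without either RNA of rounds 0 or 2 (up to 0.084), and the second ITGB1BP1 clone when any single RNA of rounds 0, 1 or 2 was left out (up to 0.173).

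Between amplified rounds 0 members were called in limma in each of the 3 comparisons. Of all clones 0 were called between rounds 1 and 2 (0%) and between rounds 2 and 3 (0%), and 16 between rounds 1 and 3 (0.289%). At an unadjusted p under 0.05 there were 5, 3 and 10 members for round 2 against 1, round 3 against 2 and round 3 against 1, where 10.3%, 7.24% and 21.2% of all clones had such a p. The median size of the difference between rounds 1 and 2, 2 and 3, and 1 and 3 was 0.34, 0.29 and 0.45 over the members, beside 0.31, 0.26 and 0.44 over all clones.

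Several genes had more than 1 clone on the array, and these measure a gene by separately spotted clones. Of 13 genes with 2 or more tested clones, 10 had clones whose mean over the rounds had 1 sign, and 8 had clones whose round 1 difference had 1 sign. Over the 4 rounds together the means lay within 0.5 of each other for FN1, ITGB4, TIMP3, COL1A2, SPP1, COL4A1 and LAMC1. At single rounds some of these lay farther apart: ITGB4 by 0.92, 1.13, 0.86 and 0.67 at rounds 0 to 3, COL4A1 by 0.95 and 0.80 at rounds 1 and 2, and LAMC1 and TIMP3 by up to 0.70 and 0.71. Over the rounds together the means lay more than 1 apart for COL12A1, LAMA5, COL18A1 and MMP23, where the value is that of a clone and not of the gene. The annotation used here does not say which stretch of a transcript a clone covers, so that clones of a gene may share sequence.

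**Figure D3:**
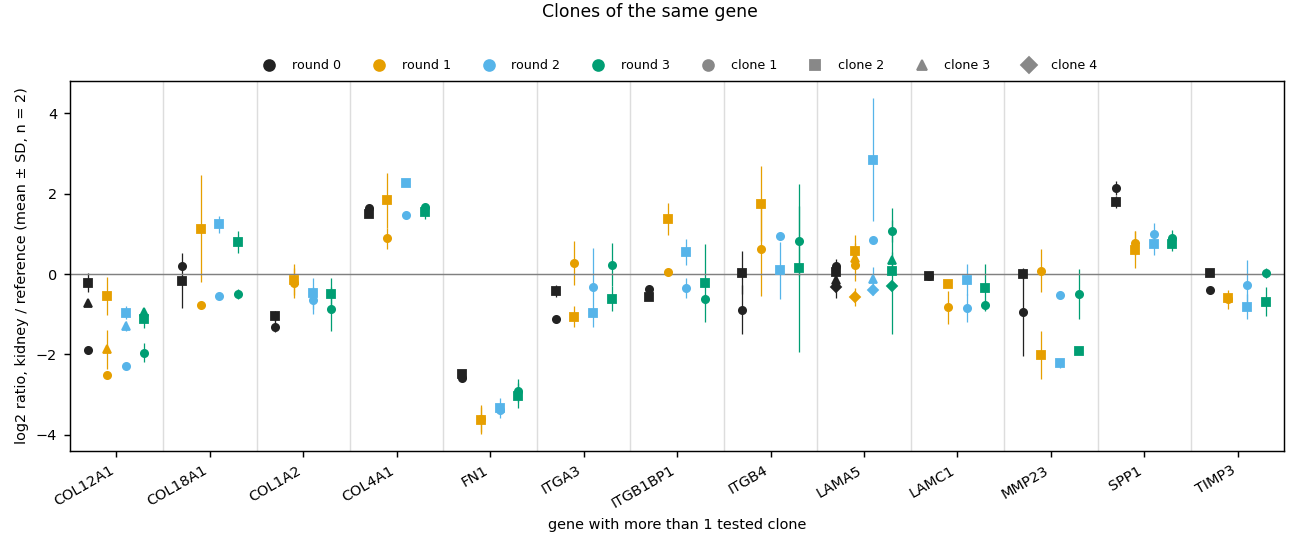
Mean log2 ratio of kidney over reference (y axis, bars ± SD, n = 2 RNAs) for each clone of the 13 genes with more than 1 tested clone (x axis), coloured by round and with a symbol for each clone. The symbols of FN1 and SPP1 lie close together at every round, while those of LAMA5 are up to 3.26 apart at round 2. At round 1 those of MMP23 are up to 2.10 apart and those of COL12A1 up to 1.96.

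The differences can also be read by the dye of the kidney sample within the same RNAs. Over 49 members with values in both orientations, the difference from round 0 had the same sign in both for 36, 40 and 36 members at rounds 1, 2 and 3. Among those called it had the same sign for 13 of 14, 7 of 7 and 8 of 8, the exception being HSPG2. The calls were made on the mean of these same arrays, so that equal signs among called members are partly built in. The rates over all clones are not given here. The sizes differed all the same. At round 1 the second FN1 clone had -0.54 in Cy5 and -1.76 in Cy3, LAMB1 -0.59 and -2.04, the first COL18A1 clone -0.46 and -1.47, and ITGB1 -0.69 and -1.85, and these 4 calls were lost with kidney in Cy5 alone. Of the 37 single calls, 30 could be fitted in Cy5 alone, where 14 were kept, and 36 in Cy3 alone, where 26 were kept. COL6A1, COL7A1, FMOD and the second ITGB1BP1 clone are not among these 49, as they lack a value on at least 1 array. With kidney in Cy5 alone 3, 5 and 7 members were called at rounds 1, 2 and 3, and with kidney in Cy3 alone 6 at round 3. The share of all clones called in these fits is not given here.

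**Figure D4:**
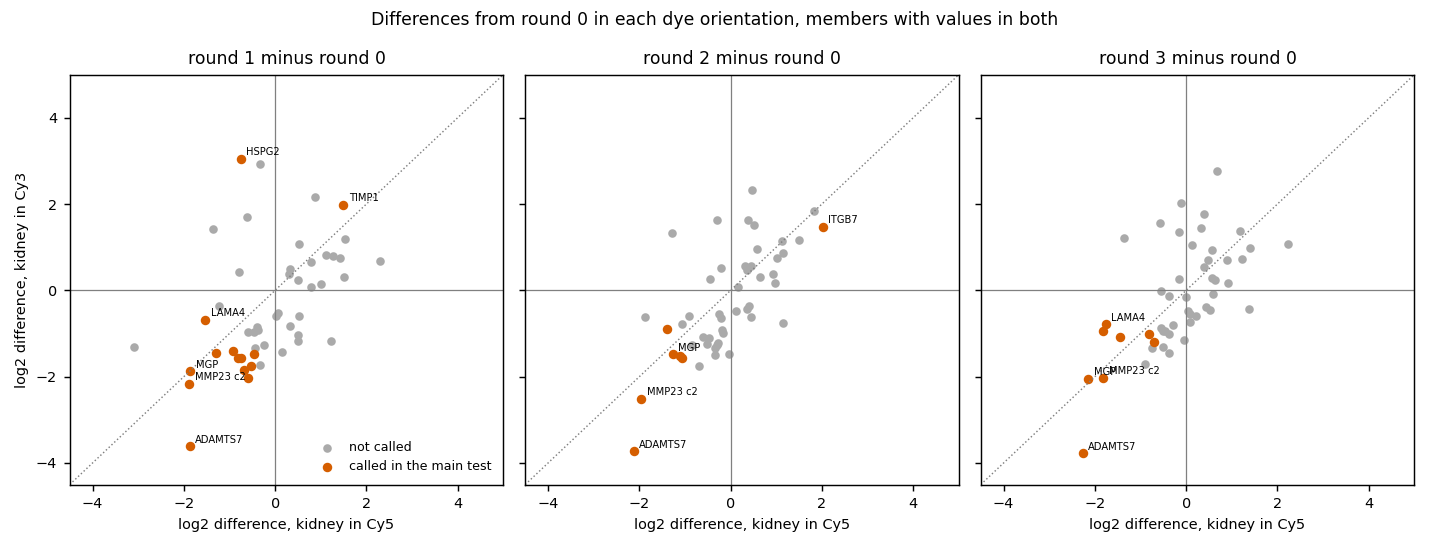
Log2 difference from round 0 on the arrays with kidney in Cy5 (x axis) and in Cy3 (y axis), 1 point per member with a value in both, for rounds 1, 2 and 3 (panels), with called members in orange and the dotted line marking equal values. MGP, ADAMTS7 and the second MMP23 clone lie below 0 on both axes in every panel, and HSPG2 lies at -0.75 in Cy5 and 3.04 in Cy3 at round 1.

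Other genes that work with the matrix, taken from a list of 113 names, gave 41 tested clones of 34 genes. Of these, 11 clones of 10 genes were called against round 0 at least once, beside 20.5% of all tested clones. At round 1, 5 rose and 2 fell, beside 5.42% and 7.87% of all clones. At round 2, 3 rose and 3 fell, beside 4.41% and 6.79%, and at round 3, 3 rose and 4 fell, beside 4.61% and 7.1%. CD44, the hyaluronan receptor, rose by 3.08, 2.53 and 3.61 in 1 clone and by 1.38 at round 1 in another. ZYX (zyxin), of focal adhesions, rose by 2.03, 1.92 and 2.26 in 1 clone, and its other clone, at 1.54, 1.16 and -0.03, was not called. PTK2 (focal adhesion kinase) rose by 2.20 and 2.38 at rounds 2 and 3, and LOXL1, which crosslinks elastin, rose by 1.32 at round 1. PLAU (urokinase) fell by 1.59, 1.61 and 1.25, and TNC (tenascin) fell by 1.59, 1.57 and 1.37 in 1 clone. The other TNC clone differed the opposite way, by 1.92, 2.12 and 1.38, and was not called. ECM1 fell by 2.10 in 1 clone and FERMT2 (kindlin) by 1.57, both at round 3, while the other ECM1 clone had a difference of 0.11 there. TLN1 rose by 1.04 at round 1, and ELN fell by 1.15 at round 2.

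The tissue was checked against markers of its cell types. The median of kidney tubule and glomerulus markers (14 tested clones of 9 genes) was 2.85, 2.79, 2.96 and 2.73 at rounds 0 to 3, with 10, 10, 9 and 9 clones called above the reference, but the numerator was chosen by these markers, so that their sign is no finding. Endothelial markers (10 clones of 8 genes) had medians of 2.02, 1.75, 1.97 and 1.94. Of these clones 1, 2 and 1 rose and 2, 2 and 2 fell against round 0 at rounds 1, 2 and 3. Over all tested clones 13.3%, 11.2% and 11.7% were called. CDH5 fell by 1.80, 1.82 and 1.71 and 1 PECAM1 clone by 1.85, 2.58 and 2.06. PLVAP rose by 2.92, 2.84 and 1.85, and the other PECAM1 clone rose by 1.17 at round 2. Markers of fibroblasts, mesangium and smooth muscle (11 clones of 7 genes), cells that make much of the fibrous matrix, had medians of -0.66, -0.09, -0.67 and -0.83, with VIM lowest at -3.96 to -3.11 over its 2 clones. Against round 0, 2, 1 and 1 of these 11 clones rose and 1, 1 and 0 fell at rounds 1, 2 and 3. Epithelial markers (8 clones of 6 genes) had medians of 1.59, -0.71, -0.21 and -0.74, but the median of their differences from round 0 was -0.32, -0.36 and -0.14, and 2 of the 8 clones, 1 of CDH1 and that of CLDN4, fell. Medians were, for leukocyte markers (10 clones of 8 genes), -0.85, -0.46, -0.13 and -0.38, and for placenta and trophoblast markers (21 clones of 9 genes), -0.36, 0.21, 0.11 and 0.01. Against round 0, the leukocyte list had 1, 0 and 2 clones that rose and 0 that fell. The placenta and trophoblast list had 2, 1 and 2 that rose and 2, 2 and 2 that fell. In the kidney list 0 rose and 2, 2 and 2 fell. Red blood cell markers had 0 tested clones. The part of these cell types in the ratios of the matrix genes was not tested.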

How the data were processed

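Deposited were, for 15 arrays, log2 ratios between the channels, and the values of the round 1, replicate 1, Cy3 array, which end in 69 whole numbers, were handled as a deposited score on the same scale with these 69 missing. How the authors scanned and normalized the arrays is not given in the sources used here; with no intensities dim spots could not be filtered. The code 16.61 and values beyond 10 in size were treated as missing. Duplicate spots were averaged and arrays with kidney in Cy3 were turned. Each array's median over clones with a listed gene was then set to 0, and the 2 arrays of an RNA were averaged. An RNA with 1 array kept that array's value. Comparisons used lmFit and eBayes of limma (version 3.58.1; R 4.3.3, with the package data.table at version 1.17.8), with 1 mean per round, 4 residual and 2.4 prior degrees of freedom, and adjusted by Benjamini and Hochberg over the 5537 tested clones; the code was tested on simulated data. An exact test of 2 against 2 RNAs cannot pass 0.05. Of all clones 5598 have 1 symbol, 95 several and 2755 no listed gene; no member has several. Clones of a gene are numbered here in array order. Values in every RNA are given for the 15 called members with the largest differences, the 6 highest and 6 lowest means, and all clones of the genes so taken; other called members are given by their difference. Members and lists were chosen with earlier results of these data known. Alternatives were the centring, scaling, spots, dyes, arrays, rounds fitted, a replicate block and leaving out each RNA.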

Additional observations from a re-analysis of the deposited data

How the results depend on the processing

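The precision is limited by 2 RNAs per round and by ratios without intensities. Leaving out each RNA in turn, the members called against the reference numbered 15 to 26, 18 to 31, 17 to 32 and 15 to 31 at rounds 0 to 3. Against round 0 they numbered 3 to 11, 1 to 11 and 3 to 12 at rounds 1, 2 and 3, for any difference among rounds 0 to 5, and between amplified rounds 0. Against the reference, kidney in Cy5 alone called 20 at round 1 and 17 at round 2, and no centring called 20 at round 2 and 17 at round 3. Against round 0 at rounds 1, 2 and 3, kidney in Cy5 alone called 3, 5 and 7, no centring 26, 3 and 4, and fitting only the rounds compared 0, 4 and 5. Both spots required called 14 and 17 at rounds 2 and 3, scaling arrays to 1 median absolute deviation 15 and 17, values on all 16 arrays 15 at round 2, kidney in Cy3 alone 6 at round 3, and leaving out the round 1, replicate 1, Cy3 array 7 at rounds 1 and 3. For any difference among rounds, Cy3 alone, no centring, a replicate block and leaving out that array each called 5, Cy5 alone 2, and scaling or all 16 arrays 13. No centring moved the median over all clones by -1.04, -0.08 and -0.34 at rounds 1, 2 and 3. One difference reversed: HSPG2 at round 1, which was -0.75 with kidney in Cy5 alone. The replicate labels were not shown to pair the RNAs, as residuals correlated above 0.1 in 1 of 6 pairs of rounds; with a replicate block 15, 9 and 11 members were called against round 0. Of the 37 single calls 7 were lost with that block: COL6A1 at round 2, COL7A1 at round 3, the second FN1 clone, HSPG2 and LAMB1 at round 1, and ITGAV and ITGB1 at round 3. Except where given above, the share of all clones called in a fit is not set beside these counts. They describe the fits and are no result about the matrix genes. The cause of the changes between fits was not tested.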
